A study of Gallus gallus with 10 samples.

Results

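The mitochondrially encoded complex I genes are the 7 genes of the chicken mitochondrial genome whose products are subunits of NADH dehydrogenase. They were ND1, ND2, ND3, ND4, ND4L, ND5 and ND6, found in the count table by symbol and checked by the NCBI gene number in its description column. All 7 were present, among 29558 genes in all, and all 7 passed the filter on low counts in the comparison of ages. The libraries came from the magnum, the oviduct segment that lays down egg white, of broiler breeder hens (Gallus gallus). They were compared between peak lay, at 35 weeks of age (labelled Young), and declining lay, at 50 weeks (labelled Aged), with 5 hens at each age and an egg lying in the magnum of each. Whole tissue was used, and the labels name no treatment other than age and give no strain beyond broiler breeder.

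Complex I, or NADH:ubiquinone oxidoreductase, takes electrons from NADH, passes them to ubiquinone in the inner mitochondrial membrane and pumps protons across it. The mitochondrial genome encodes core subunits of its membrane arm, while the arm that binds NADH and all other subunits come from nuclear genes. ND2, ND4 and ND5 are the antiporter-like subunits of the membrane arm, ND1 lines the site where ubiquinone is reduced, and ND3, ND4L and ND6 are small membrane subunits between ND1 and the antiporter-like ones. In vertebrates the mitochondrial genes are transcribed as long RNAs that are cut into single messages, largely at the tRNAs between them. ND6 is read from the opposite strand to the other members and so from a different primary transcript. ND4L and ND4 are known from mammals to share a message. The magnum makes large amounts of secreted protein for every egg, a process that uses ATP.

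In GRCg7b coordinates, taken from RefSeq, the members lie on chromosome MT. ND1 lies at 2824 to 3798 and ND2 at 4015 to 5053. ND3 lies at 9553 to 9904, ND4L at 9974 to 10270, ND4 at 10264 to 11641, ND5 at 11849 to 13666 and ND6 at 14962 to 15483. ND4L and ND4 share 7 bases, so a read over that junction can belong to either. No other pair of members overlaps, and CYTB, which encodes cytochrome b of complex III, lies between ND5 and ND6.

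Library totals ranged from 188271 to 258195 counts (median 220938), and no member had a count of 0 in any library. Markers of the secreting magnum were present, with 8 of 8 counted (OVAL, the ovalbumin gene, the highest of the 8). Together they had 5963 to 11993 counts per library. The most counted gene of a library was not among them. It held 7.24% to 11.8% of the library, more than the 8 together. How the use of strand in counting bears on this was not tested. The titles name the shell gland, a later segment, beside each hen's number, and the magnum as the place of its egg. Of the 6 shell gland markers, 4 were at 0 in every library (CALB1, SLC26A9, OC3 and SPP1). The other 2, of which CA2 was the highest, summed to between 0 and 9 counts per library. In overall profile 3 libraries stood apart, namely replicate 4 at 50 weeks with replicates 1 and 2 at 35 weeks. The fold changes and calls of the members are given with and without them. So are the differences by age in the members' share of counts and in ND6's share of the members' counts. Levels, ranks and correlations were not repeated without them. The sources used here do not say how the counting treated strand or reads that also match nuclear copies of mitochondrial sequence. Counts of ND6 and of RNA from the opposite strand at the same place cannot be told apart, and the same holds for each of the other members.

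Together the members held a small part of each library, and how the use of strand in counting bears on it was not tested. Their share of all counts was 0.377%, 0.314%, 0.391%, 0.654% and 0.306% in replicates 1 to 5 at 35 weeks, and 0.459%, 0.330%, 0.279%, 0.277% and 0.305% in replicates 1 to 5 at 50 weeks. The Wilson 95% interval of the highest, replicate 4 at 35 weeks, ran from 0.621% to 0.690% and lay above the interval of every other library, of which the nearest was 0.430% to 0.489% in replicate 1 at 50 weeks. These intervals cover counting error only. The mean share was 0.408% ± 0.142 (SD, n = 5) at 35 weeks and 0.330% ± 0.0752 at 50 weeks, and the ages overlapped. Without replicate 4 at 35 weeks the difference between the ages moved from −0.0786 to −0.0171 percentage points, and without the 3 libraries that stood apart it was −0.107 points. All 13 protein genes of the mitochondrial genome held 0.471% to 1.08% of a library, and the complex I genes were 47.9% to 60.4% of those counts.

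Order by counts was steady across hens. ND5 had the most counts of the members in all 10 libraries, from 184 to 427, and ND4 was second in 9 of 10, with 147 to 290. ND6 had 77 to 271 counts and had rank 3 in 6 libraries, rank 2 in 1 and came behind ND2 in the remaining ones. ND1 had rank 5 in every library with 35 to 115 counts. The short genes ND3 (12 to 42 counts) and ND4L (11 to 41 counts) took the last places. ND5 and ND4, both antiporter-like subunits, together made up 49.1% to 64.0% of the members' counts.

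Of the antiporter-like subunit genes, ND5 and ND4 had the highest mean CPM of the members at both ages, while ND2 was below ND6 (CPM are counts scaled by edgeR to a common library size with TMM). ND5 measured 1426, 1139, 1433, 2243 and 1068 CPM in replicates 1 to 5 at 35 weeks, and 1453, 1176, 989, 1056 and 1196 CPM at 50 weeks. Replicate 4 at 35 weeks was the highest of all 10, and the ages overlapped. ND4 measured 1219, 783, 959, 1523 and 853 CPM at 35 weeks, and 1006, 737, 691, 659 and 826 CPM at 50 weeks. For ND4, as for ND1, ND2, ND5 and ND6, 4 of 5 hens at 50 weeks lay below the median hen at 35 weeks. The ages overlapped for ND4 too. ND2 measured 492, 622, 629.9, 1008 and 383 CPM at 35 weeks and 660.2, 459, 321, 414 and 371 CPM at 50 weeks, again with overlap.

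ND1, the gene of the subunit at the ubiquinone site, measured 339, 275, 335, 604 and 203 CPM at 35 weeks and 431, 268, 192, 237 and 244 CPM at 50 weeks. Among the small subunits, ND3 measured 152, 104, 202, 221 and 69.6 CPM at 35 weeks and 85.2, 122, 114, 88.7 and 150.1 CPM at 50 weeks. All 5 hens at 50 weeks were below the median hen at 35 weeks for ND3, but 2 of the 35-week hens, at 104 and 69.6 CPM, were no higher than that range, so the ages overlapped. ND4L measured 118, 52.2, 98.2, 215 and 87.0 CPM at 35 weeks and 74.5, 137, 77.8, 76.1 and 117 CPM at 50 weeks. Its lowest hen and its highest hen were both at 35 weeks.

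ND6 had the largest coefficient of variation over hens of the 7 members at both ages. It measured 388, 527, 659, 1423 and 685 CPM in replicates 1 to 5 at 35 weeks, and 1299, 619.9, 489.9, 490.2 and 361 CPM at 50 weeks. A single hen at each age was far above the rest, replicate 4 at 35 weeks and replicate 1 at 50 weeks, and the other 8 lay between 361 and 685 CPM. The coefficient of variation over hens was 54.6% at 35 weeks and 57.2% at 50 weeks, where counting error alone would give 8.49% and 8.63%. Over all 1773 tested genes the median coefficient of variation was 28.1% and 25.2%. ND5, by comparison, had 31.9% and 15.2%, ND4 28.5% and 17.8%, and ND4L 53.8% and 29.7%, the last with a counting error of 21.5% and 22.1%.

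**Figure D1:**
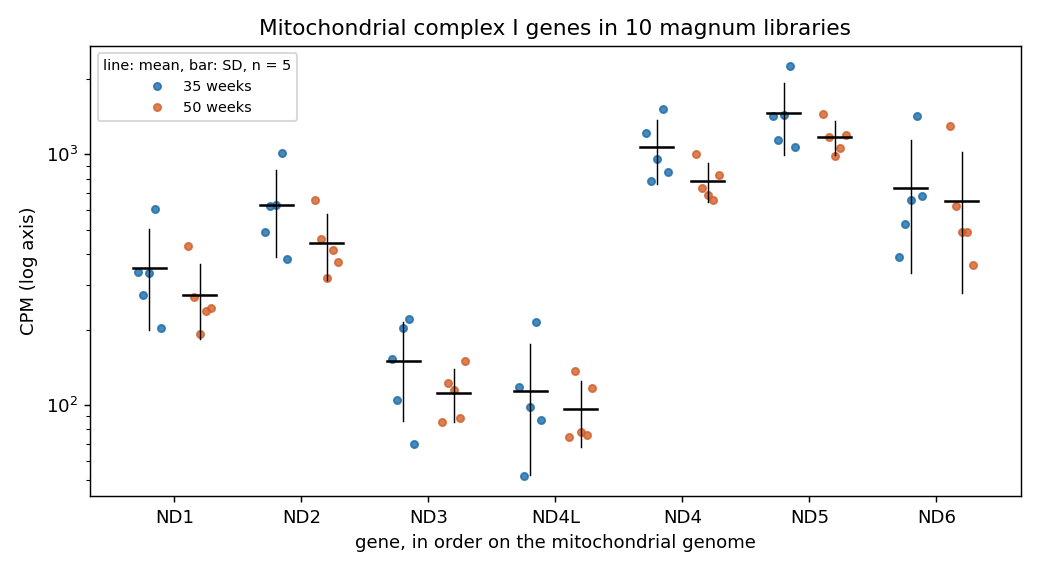
CPM on a log axis of the 7 complex I genes in each library, with genes in their order on the mitochondrial genome, points for hens, lines for means and bars for SD (n = 5 per age). ND5 and ND4 are highest, ND3 and ND4L lowest, the ages overlap for every gene, and ND6 has 1 high hen at each age.

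Per length the order was different. Dividing CPM by the annotated gene length gave ND6 1330 ± 705 CPM per kb (SD over 10 libraries), ahead of ND5 with 725 ± 201 and ND4 with 672 ± 195. ND2 followed with 516 ± 196, then ND3 with 372 ± 142, ND4L with 355 ± 155 and ND1 with 321 ± 128. ND6 was first of the 7 per length in 9 libraries and had rank 3 in replicate 1 at 35 weeks. Lengths were used as annotated, with no correction for fragment length, which bears most on the short genes ND3 and ND4L. How the counting treated strand is not known, and ND6 lies on the opposite strand to the other members. How much RNA from the other strand adds to the counts of ND6, or of the other members, was not tested.

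Neighbours in this order were compared within each library. ND6 was above ND5 in 9 of 10 libraries, with a mean log2 ratio of 0.77 ± 0.50 (SD, n = 10) in CPM per kb. ND4 was above ND2 in 9 of 10 (0.42 ± 0.33). These were the neighbours whose mean log2 ratio exceeded its SD. ND5 was above ND4 in 8 of 10 libraries (0.12 ± 0.14) and ND2 above ND3 in 8 of 10 (0.48 ± 0.53), in both cases with a mean smaller than its SD. ND3 was above ND4L in 5 of 10 (0.08 ± 0.45) and ND4L above ND1 in 7 of 10 (0.12 ± 0.52), also within the spread. For every neighbouring pair the ranges over the 10 libraries overlapped. The SD is the spread of single libraries and not the error of the mean, and the order of neighbours was not tested.

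Among all 13 protein genes of the mitochondrial genome, ND6 was first per length in 7 libraries, and its lowest rank was 5, in replicate 1 at 35 weeks. ATP6, a membrane subunit of ATP synthase, averaged 987 ± 349 CPM per kb over the 10 libraries and was first in 2, and CYTB averaged 1073 ± 313 and was first in 1. COX1, COX2 and COX3, the core subunits of cytochrome c oxidase, averaged 478 ± 165, 274 ± 79.1 and 425 ± 117 CPM per kb, which put COX2 below all 7 complex I genes. ATP8, the shortest, was last in every library, with 107 ± 46.0 CPM per kb and 1 to 6 counts. In genome order the levels of the complex I genes per length were lowest at ND1 and higher from ND4 to ND6.

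**Figure D2:**
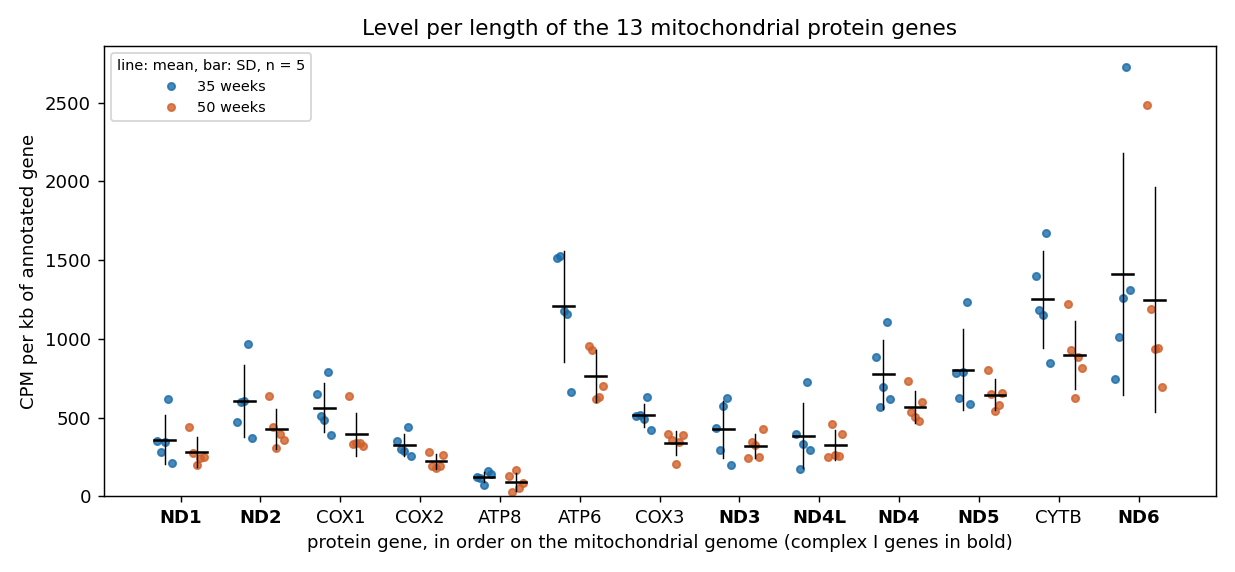
CPM per kb of annotated gene (linear axis) for the 13 protein genes of the mitochondrial genome in genome order, with complex I genes in bold, points for hens, lines for means and bars for SD (n = 5 per age). ND6 reaches 2727 CPM per kb in replicate 4 at 35 weeks and 2489 in replicate 1 at 50 weeks, and 692 to 1312 in the other hens. Its mean over all 10 libraries, 1330, is above those of CYTB (1073) and ATP6 (987), but those high hens raise it. CYTB ranges from 625 to 1673 and ATP6 from 616 to 1526 CPM per kb. The use of strand in counting is not known.

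ND6 also varied between libraries as a share of the members' counts. That share was 9.39%, 15.0%, 15.3%, 19.7% and 20.5% in replicates 1 to 5 at 35 weeks, and 25.9%, 17.6%, 17.0%, 16.2% and 11.1% at 50 weeks. Counting error does not cover this range, since the Wilson 95% interval was 7.60% to 11.6% for the lowest library and 23.2% to 28.8% for the highest. By age it averaged 16.0% ± 4.43 (SD, n = 5) at 35 weeks and 17.6% ± 5.35 at 50 weeks, a difference of 1.61 percentage points that was smaller than the spread between hens. Its sign depended on single libraries, at −0.0307 points without replicate 1 at 35 weeks and −0.48 points without replicate 1 at 50 weeks, and it was −0.55 points without the 3 libraries that stood apart. The share of ND5 lay between 29.0% and 36.6%, that of ND4 between 20.1% and 29.5%, that of ND2 between 11.1% and 17.8% and that of ND1 between 6.07% and 8.61% of the members' counts. The short genes varied about as widely in proportion as ND6, with ND3 at 1.70% to 4.69% and ND4L at 1.49% to 3.88%. Counting error is a larger part of their range. As a coefficient of variation at 35 and 50 weeks it was 18.8% and 20.5% for ND3 and 21.5% and 22.1% for ND4L. For ND6 it was 8.49% and 8.63%.

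Replicate 4 at 35 weeks had the highest CPM of all 10 libraries for each of the 7 members. Replicate 1 at 50 weeks was the highest of its age for ND1, ND2, ND4, ND5 and ND6 and the lowest of its age for ND3 and ND4L. Both had lower totals than most, rank 7 and 8 of the 10, and neither was among the 3 libraries that stood apart. Smooth muscle markers, 7 of 7 in the table counted, also summed highest in replicate 4 at 35 weeks, with 331 CPM against a range of 116 to 209 CPM in the other hens of that age and 139 to 188 CPM at 50 weeks. Erythrocyte markers, 4 of 5 counted with HBE1 at 0, ranged from 0 to 14.7 CPM at 35 weeks and from 0 to 42.6 CPM at 50 weeks, the last being 8 counts in replicate 1. Summed egg white markers in these libraries, 44998 and 44278 CPM, had rank 4 and 5 of the 10. Their part in the levels of the members was not tested.

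Across the 10 libraries, log2(CPM + 1) values of the members were compared with each other. Against the sum of the other members without ND6, Pearson's r was 0.99 for ND5 (Spearman's rho 0.92), 0.95 for ND1 (0.94), 0.89 for ND4 (0.78) and 0.84 for ND2 (0.76). It was 0.63 for ND3 (0.47), 0.62 for ND4L (0.28) and 0.65 for ND6 (0.37). Without the 2 libraries farthest from each gene's median, r was 0.97 for ND5, 0.93 for ND1 and 0.79 for ND4. It was then 0.55 for ND2, 0.20 for ND3, 0.22 for ND4L and −0.09 for ND6. For ND3, ND4L and ND6 little of the relation was thus left without those libraries. Leaving out a gene's own farthest libraries also narrows its range, which by itself tends to lower r. Without replicate 4 at 35 weeks alone, r was 0.66 for ND2, 0.39 for ND3, 0.16 for ND4L and 0.33 for ND6. These are descriptions over 10 libraries that share a scaling, and genes of a shared transcript are not independent of each other.

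**Figure D3:**
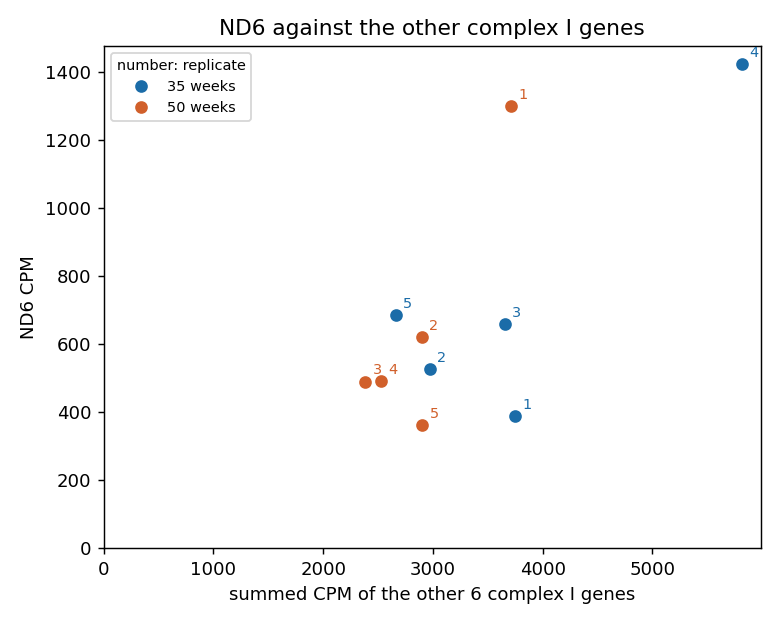
ND6 CPM against the summed CPM of the other 6 complex I genes, with 1 point per library, coloured by age and numbered by replicate, both axes starting at 0. Replicate 1 at 50 weeks has 1299 CPM of ND6 at 3711 CPM of the others, where replicate 1 at 35 weeks has 388 CPM of ND6 at 3746.

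Genes with a symbol were ranked by how like the 6 members other than ND6 their levels were over the 10 libraries. The candidates were 1264 tested genes, with the members left out. Of the 5 with the highest Pearson's r, 3 were other genes of the mitochondrial genome, CYTB (0.90), COX2 (0.88) and COX1 (0.88). The others were BRF2 (0.93), an RNA polymerase III transcription factor subunit, and EIF3A (0.81), a translation initiation factor subunit with 6 to 21 counts. Without replicate 4 at 35 weeks, r was 0.79 for BRF2 and 0.76 for EIF3A. It was then 0.88 for CYTB, 0.80 for COX2 and 0.84 for COX1. For ND6 the 5 were MRPL13 (0.89), a protein of the mitochondrial ribosome, WDR86 (0.82), the sulfotransferase gene CHST11 (0.77), GGACT (0.77) and ATP5E (0.77), a subunit of ATP synthase. None of these 5 lies on the mitochondrial genome, but the members were not candidates. With the other members, r of ND6 ran from 0.07 (ND3) to 0.74 (ND2). Without the 2 libraries high in ND6, r was 0.87 for MRPL13 and 0.77 for CHST11 but 0.49 for WDR86, 0.43 for ATP5E and 0.07 for GGACT. These genes were picked as the highest of 1264 over the same libraries, so these values are not an independent check. How high r would be by chance among so many genes was not worked out. MRPL13 and CHST11 had 9 to 26 and 7 to 20 counts per library. BRF2, EIF3A, MRPL13 and ATP5E each have another gene overlapping or within 1 kb, so part of their counts may come from it.

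With age, every member had a negative fold change and none passed the threshold. Fold changes are 50 against 35 weeks, and a gene was called at an adjusted p under 0.05 in the quasi-likelihood test of edgeR, adjusted by Benjamini-Hochberg over the 1773 genes tested. The count called was 0 of 7, where 0.0564% of all tested genes were called, and it was also 0 with DESeq2 and with limma-voom. DESeq2 gave no adjusted p for ND3 and ND4L, so it could not call them. At an unadjusted p under 0.05 the count was 1 of 7, ND4, lower at 50 weeks, where 6.03% of all tested genes were. DESeq2 gave the same count at that unadjusted threshold, and limma-voom gave 2, ND2 and ND4. Of all tested genes 49.1% had a negative fold change, and their median log2 fold change was 0.01, against −0.36 for the 7 members. Members that share a primary transcript do not make separate observations. Over hens ND1, ND2, ND4 and ND5 varied together, with Pearson's r of 0.84 to 0.99 against the other members without ND6. For ND3 and ND4L it was lower, at 0.63 and 0.62. Some cell type markers also had lower means at 50 weeks, with no test made of them here. Summed egg white markers went from 49358 ± 6100 CPM (SD, n = 5, range 44135 to 58960) to 34661 ± 5763 CPM (29105 to 44278), and those of ciliated epithelium, 8 of 8 in the table counted, from 1333 ± 263 CPM (1079 to 1737) to 1018 ± 224 CPM (718 to 1332). Both overlapped between the ages, and their part in the fold changes of the members was not tested. In whole tissue, fewer cells rich in mitochondria and less mitochondrial RNA per cell cannot be told apart.

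Of the antiporter-like subunit genes, the mean of ND4 was 1068 ± 304 CPM at 35 weeks (SD, n = 5) against 784 ± 139 at 50 weeks, or −0.45 in log2 fold change (SE 0.19, edgeR adjusted p = 0.444, unadjusted p = 0.0365). ND2 averaged 627 ± 236 and 445 ± 131 CPM, with the largest fold change of the members, −0.50 (SE 0.25, edgeR adjusted p = 0.513). For ND5 the means were 1462 ± 467 and 1174 ± 178 CPM, with −0.32 in log2 fold change (SE 0.20, edgeR adjusted p = 0.632). The 95% intervals were −0.86 to −0.03 for ND4, −1.04 to 0.04 for ND2 and −0.74 to 0.10 for ND5. Those of ND2 and ND5 held 0.

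ND1 averaged 351 ± 152 and 275 ± 91.8 CPM (log2 fold change −0.36, interval −0.97 to 0.24). The small subunit genes ND3 and ND4L had log2 fold changes of −0.42 (interval −1.06 to 0.23) and −0.24 (−0.97 to 0.49). ND6 had the smallest, −0.18, with the widest interval of the members, −1.07 to 0.71 (edgeR adjusted p = 0.925). Its means were 736 ± 402 CPM at the earlier age and 652 ± 373 CPM at the later. A 2-fold fall (−1 on the log2 scale) lay just inside the intervals of ND2, ND3 and ND6 and outside those of ND1, ND4, ND4L and ND5, and a 2-fold rise lay outside all 7.

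**Figure D4:**
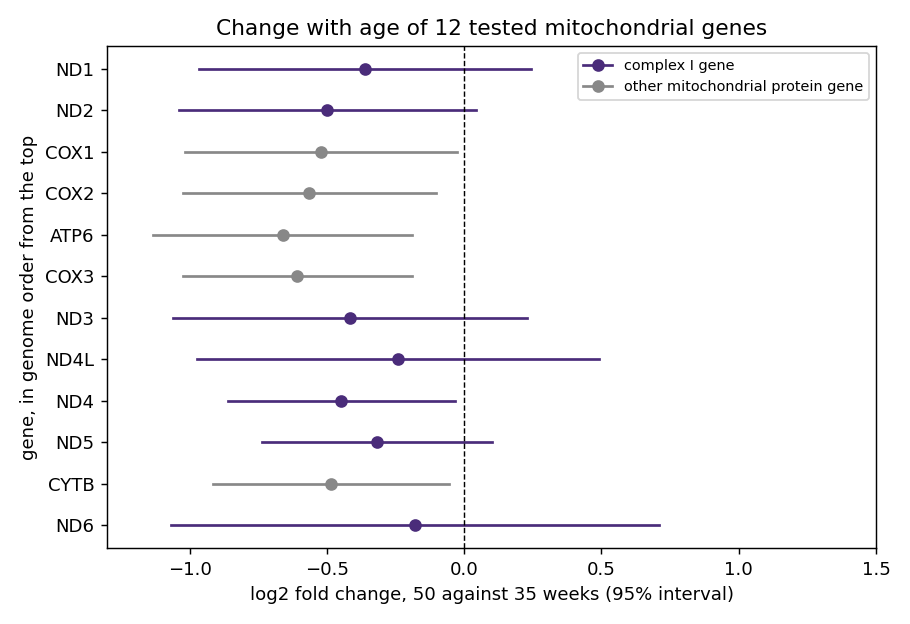
Log2 fold change of 50 against 35 weeks (points) with 95% intervals (lines) from edgeR's fit across all genes, for the 12 tested protein genes of the mitochondrial genome in genome order, with complex I genes in purple and the others in grey. All 12 points are negative, from −0.66 for ATP6 to −0.18 for ND6, and of the complex I genes the interval of ND4 alone leaves out 0.

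A single hen decided much of the fold changes. Without replicate 4 at 35 weeks the log2 fold change turned positive for ND6 (0.21) and ND4L (0.13), fell in size to −0.07 for ND1 and −0.10 for ND5, and the median over the 7 members was −0.10. The unadjusted p of ND4 was then 0.149. Without replicate 1 at 50 weeks, the other library high in ND6, the log2 fold change of ND6 was −0.58 and that of ND2 −0.67, and the median was −0.54. Without the 3 libraries that stood apart all 7 were negative, from −0.59 to −0.40, and again none was called. In no comparison with all 10 libraries did a member change sign.

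**Figure D5:**
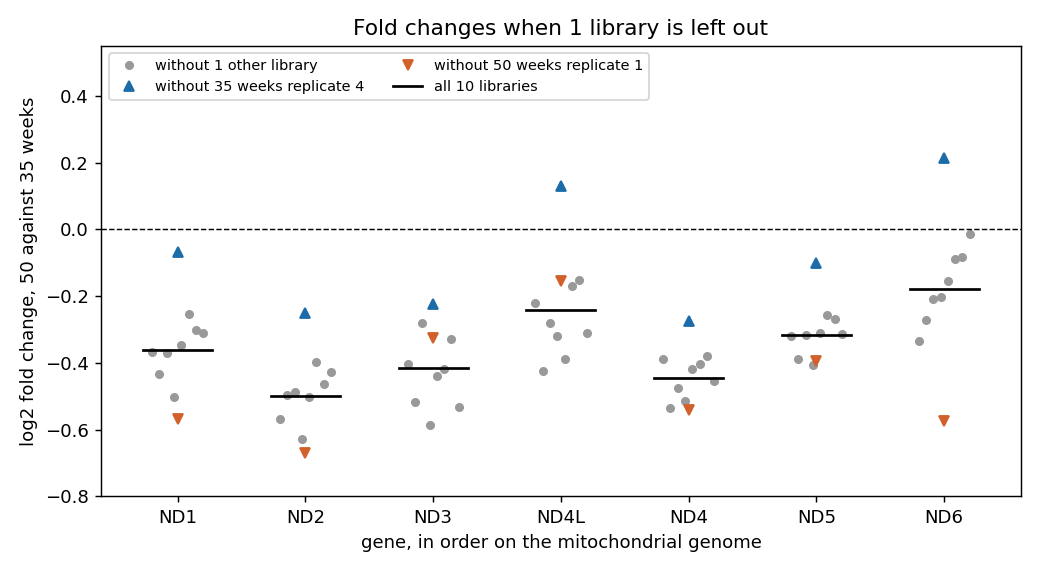
Log2 fold change of 50 against 35 weeks for each complex I gene when 1 library is left out (points and triangles) and with all 10 libraries (black lines). The blue triangles, without replicate 4 at 35 weeks, are the highest value for every gene and lie above 0 for ND6 (0.21) and ND4L (0.13).

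The other mitochondrial protein genes were also lower at 50 weeks without passing. The 5 tested were COX3 (log2 fold change −0.61), ATP6 (−0.66), COX2 (−0.56), CYTB (−0.49) and COX1 (−0.52), each with an unadjusted p under 0.05 and an edgeR adjusted p between 0.268 and 0.460. Of all tested genes 6.03% were lower at 50 weeks at that unadjusted threshold. Replicate 4 at 35 weeks had the highest CPM of all libraries for each of these genes but ATP6. Their fold changes without it are not given here. COX3 was separated, with every hen at 50 weeks below every hen at 35 weeks, which 1.13% of tested genes were in that direction, and no complex I gene was. ATP8 had too few counts to be tested. The complex I genes made up 53.9% ± 5.30 (SD, n = 5) of the counts of the 13 genes at 35 weeks and 57.7% ± 1.25 at 50 weeks, and the ages overlapped.

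Nuclear complex I subunit genes had few counts. How the counting treated strand is not known for these genes either, and its part in their levels was not tested. Of 37 in the list fixed for this comparison, 30 were in the table, 23 of them averaged under 10 counts per library and 7 could be tested. NDUFB10 and NDUFB9 alone held 86.8% to 90.1% of their counts. NDUFB10 has RPL3L and RPS2, and NDUFB9 has TATDN1 and MTSS1, overlapping or within 1 kb. Part of the counts of both may come from those genes, which was not tested. None of the 7 was called by edgeR, DESeq2 or limma-voom, and 1, NDUFB9, had an unadjusted p under 0.05 in edgeR. DESeq2 gave no adjusted p for ND3, which averaged 26.1 counts per library. Genes with lower means, such as NDUFS3 (7 to 19 counts) and NDUFA6 (5 to 18), may likewise have had none, and DESeq2 could then not call them. Over all tested genes edgeR called 0.0564% and gave 10.5% an unadjusted p under 0.05, in either direction. The fold changes of the 7 nuclear genes were 4 positive and 3 negative, with a median of 0.07 on the log2 scale. The mean of NDUFB9, an accessory subunit, went from 2100 ± 395 CPM (SD, n = 5) to 1527 ± 452 CPM at the later age (log2 fold change −0.46, edgeR adjusted p = 0.427). Among the accessory subunits NDUFA6 (0.46) and NDUFA1 (0.13) had the next smallest p. NDUFS3, a core subunit of the arm outside the membrane, was the only core gene tested and had a smaller unadjusted p than either (−0.55, edgeR adjusted p = 0.580). NDUFA6, NDUFA1 and NDUFS3 likewise each have another gene overlapping or within 1 kb, so part of their counts may come from it.

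Genes that assemble complex I or make mitochondrial RNA were likewise not called. Of all tested genes edgeR called 0.0564% and gave 10.5% an unadjusted p under 0.05, in either direction. Of the assembly factors 15 of 19 were in the table and 4 were tested, 3 positive and 1 negative, with none at an unadjusted p under 0.05 in edgeR or DESeq2 and 1 in limma-voom. They included TMEM186 (log2 fold change −0.48), ACAD9 (0.26) and TMEM126A (0.18). Of the mitochondrial RNA genes 23 of 26 were in the table and 4 were tested, none at an unadjusted p under 0.05 by any of the 3 tools. TRMT10C, a subunit of the enzyme that cuts tRNAs out of the primary transcript, had a log2 fold change of 0.56 (edgeR adjusted p = 0.598), FASTKD3 0.57 and GRSF1, an RNA-binding protein of mitochondrial RNA granules, −0.23. SLIRP, which with LRPPRC stabilises mitochondrial messages, had means of 649 ± 69.4 and 649 ± 81.9 CPM at the earlier and later age, and its log2 fold change was 2.6e-04 (SE 0.14). Of the mitochondrial DNA genes MGME1 alone was tested (−0.32, SE 0.52), with 1 to 18 counts. MGME1 was not called by any of the 3 tools or at an unadjusted p under 0.05. With so few counts MGME1 may have had no adjusted p in DESeq2, which gave none for ND3 and ND4L. The same may hold for TRMT10C (5 to 21 counts) and FASTKD3 (4 to 22). As with the nuclear subunit genes, every tested gene named here has another gene overlapping or within 1 kb. Part of the counts of each may come from that neighbour.

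In the authors' deposited table of their own comparison, which lists 206 genes, none of the 7 complex I genes and none of the other 6 mitochondrial protein genes appears. The smallest absolute log2 fold change in the authors' deposited table was 0.957, larger than that of any of these genes that could be tested here.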

How the data were processed

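Total RNA of whole magnum was made into libraries with a directional kit, per the labels' protocols. GRCg7b is the build, and HISAT2, Trimmomatic, DESeq2 and Cufflinks the tools, listed in the submitters' processing notes. The sources used here do not give versions, the read counter or its use of strand. For 10 libraries, a table of unnormalized counts by Ensembl gene was deposited. Their deposited table of results gives log2 fold changes, p-values, a score column (the Wald statistic) and mean normalised signal, per the file headers, and was used here only to look up which genes it lists.

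Members were matched through their NCBI gene numbers to a RefSeq table of GRCg7b, which gave coordinates, lengths and neighbours within 1 kb but has no strand column. Ages were compared in R 4.3.3 by edgeR 4.0.16 (minimum count of 10 in filterByExpr, TMM, robust glmQLFit and glmQLFTest, two-sided, age as the one term) over all 1773 genes that passed, with p-values adjusted over all of them and called under 0.05. SE is the log2 fold change over the root of F, and 95% intervals use the test's degrees of freedom. The fit was tested on simulated data with 200 changed genes. CPM are counts over TMM-scaled library sizes, and errors are SDs. Shares and correlations have no test. Pairs of libraries of an age differed by more than sampling noise (chi-square per degree of freedom at least 3.27), so each counts as 1 replicate. The biological coefficient of variation was 0.285.

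Alternatives were other normalizations and filters, a block for the replicate number, and leaving out libraries. DESeq2 1.42.0 and limma-voom (limma 3.58.1) were also run on the same filtered genes. The limma-voom fit used sample weights throughout, so libraries did not count equally in it. The members and gene lists were chosen with earlier results of these data known. Genes named outside the members were the other mitochondrial protein genes, the 3 with the smallest p of each nuclear list and the 5 most like the members in pattern. Outside these, NDUFB10, for its large part of the nuclear subunit counts, and SLIRP were named after their values were seen. Values were computed with Python 3.11.15, pandas 2.3.3, numpy 2.4.6 and scipy 1.17.1, and plotted with matplotlib 3.10.9.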

Additional observations from a re-analysis of the deposited data

Results flagged for a closer look

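Within the 5 hens of an age, 18 sets of values were looked at for a hen far from the rest, by comparing its gap to the nearest hen with the whole range. Chance gives about 1 in 20 sets with such a hen, and the 3 sets found here rest on 2 libraries. ND6 measured 1423 CPM in replicate 4 at 35 weeks, where the next hen had 685 CPM. ND6 measured 1299 CPM in replicate 1 at 50 weeks, where the next hen had 619.9 CPM. The 7 complex I genes together held 0.654% of the counts of replicate 4 at 35 weeks, where the next hen had 0.391%.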

How the results depend on the processing

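No member was called, and no gene of the nuclear complex I, assembly, mitochondrial RNA or mitochondrial DNA lists, under any of the 19 other settings. Under DESeq2, ND3 and ND4L had no adjusted p and so could not be called. The same may hold for genes of those lists with as few counts. ND1, ND2, ND3, ND4 and ND5 kept a negative fold change in all 19. ND4L and ND6 did so in 18, and without replicate 4 at 35 weeks they were 0.13 and 0.21 on the log2 scale. Leaving out 1 library in turn gave −0.57 to −0.07 for ND1, −0.67 to −0.25 for ND2, −0.59 to −0.23 for ND3, −0.54 to −0.28 for ND4, −0.42 to 0.13 for ND4L, −0.41 to −0.10 for ND5 and −0.58 to 0.21 for ND6. The difference in the members' share of counts ranged from −0.111 to −0.0171 percentage points. The difference in ND6's share of the members' counts ranged from −0.48 to 3.24 points, and without the 3 libraries that stood apart, a comparison chosen after seeing the data, it was −0.55. The cause was not tested. Over all genes edgeR called 1, DESeq2 17, limma-voom 12, edgeR with no filter 36, with a filter of 1 CPM in 5 libraries 40, without the 3 libraries 43 and without replicate 4 at 50 weeks 12. It called 2 on leaving out any of replicates 1 and 4 at 35 weeks and 5 at 50 weeks. The count columns run from 1 to 5 at both ages, while the titles give every hen a number of its own, and libraries of the same number did not deviate together in every pair (correlations −0.115 to 0.102), and 1 of 5 correlated best with its own number. With the number as a replicate block edgeR called 0 members and 2 genes over all, and the members' median log2 fold change was −0.32. Depth limits the short genes most, since ND4L and ND3 averaged 21.0 and 26.1 counts per library.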
